A study of Mus musculus with 3 samples.

Results

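Cyclins, cyclin-dependent kinases (CDKs), their inhibitors, and the kinases, checkpoint and centromere proteins of mitosis were examined in the neural retina of mice at postnatal day 7. The genes were taken by symbol from the annotation of the array, and 67 genes matched, out of 8251 genes with a single annotated symbol. They were read by 89 probe sets of 10833, since 19 of the 67 genes had more than 1 probe set; 1 further inhibitor gene was not analysed here. All 3 samples belonged to 1 group, wildtype littermates of Rp1-/- mice on a mixed background of 129/SvEv and C57BL/6. Each sample was total RNA of neural retinas pooled from 3 to 4 animals and collected between 1 and 2 pm, and each was hybridised to an MG-U74Av2 oligonucleotide array. The samples are named pool 1, pool 2 and pool 3. With 1 group there was nothing to compare between conditions, so the values answer which of these genes gave signal and how closely the pools agreed.

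A dividing cell passes from one phase of its cycle to the next when cyclins rise and bind their CDKs. D-type cyclins with CDK4 or CDK6 and E-type cyclins with CDK2 phosphorylate the retinoblastoma (RB) proteins and so release E2F factors in G1; A- and B-type cyclins with CDK1 and CDK2 drive S phase and entry into mitosis, and INK4 and CIP/KIP proteins hold the CDKs back. In the mouse retina progenitors go on dividing after birth and stop first in the centre and last at the periphery, and cells that have left the cycle still use several CDKs and Polo-like kinases for transcription or in neurons.

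Intensities were scaled to a common median per array and are given on that linear scale. The order of the pools for a gene is given at this scaling and can change without it. The table used here held no detection calls, so a bar was set in each pool at the 90th percentile of 65 genes known from other organs, at 328, 262 and 303 in pools 1, 2 and 3. A probe set above the bar in all 3 pools is called above the bar below. Expression of a gene whose probe set stayed under the bar remains possible, and probe sets differ in their response, so levels of different genes are not ranked. In these samples of whole retina, fewer cells of a type and less RNA per cell cannot be told apart.

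The tissue label was set against marker genes in each pool. Of the measured rod markers 9 of 11 were above the bar, of the progenitor markers 8 of 10, and of the Müller glia markers 6 of 8. Of the lists for other cells, 2 of 12 endothelial and pericyte markers, 2 of 11 microglial and immune markers, 1 of 5 astrocyte markers, 1 of 4 red blood cell markers and 1 of 5 pigment epithelium markers were above it. Pool 1 stood apart in lens genes, of which 6 of 10 were above the bar. Their summed intensity was 26835, 126941 and 136495 in pools 1, 2 and 3. In the spread test described below, 8 of the 8 lens genes tested and 2 of the 11 rod markers had an adjusted p under 0.05. These rod markers were Prph2, at 1261, 981 and 3901, and Gnat1, at 219, 699 and 680. The summed red blood cell list was at 3177, 6931 and 3035, highest in pool 2. Most of that sum was Hba-a1, at 2914, 6705 and 2821. The other red blood cell markers measured were under the bar in every pool. The summed endothelial list was at 3186, 3092 and 2903. The summed genes of other organs that set the bar were at 7168, 7896 and 8827. No value in the table was 0, and the part of these lists in the values below was not tested.

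Among the cell cycle and mitosis genes, 35 of 89 probe sets were above the bar, or 39.3%, beside 39.5% of all named probe sets. By gene, 33 of 67 had such a probe set, or 49.3%, beside 46.2% of all genes. The shares are near those of the whole array and are no result about these genes as a set. A further 11 probe sets passed the bar in 1 or 2 pools and 43 in none. By role, all 3 probe sets of the cyclins G1, G2 and L2 passed. So did 4 of 6 of the G1 cyclins and 5 of 10 of the transcriptional CDKs. Among the centromere proteins 2 of 10 passed, among the E2F factors 1 of 6 and among the proliferation markers 0 of 3. Each role holds few probe sets, the counts depend on the bar, and differences between roles were not tested.

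**Figure D1:**
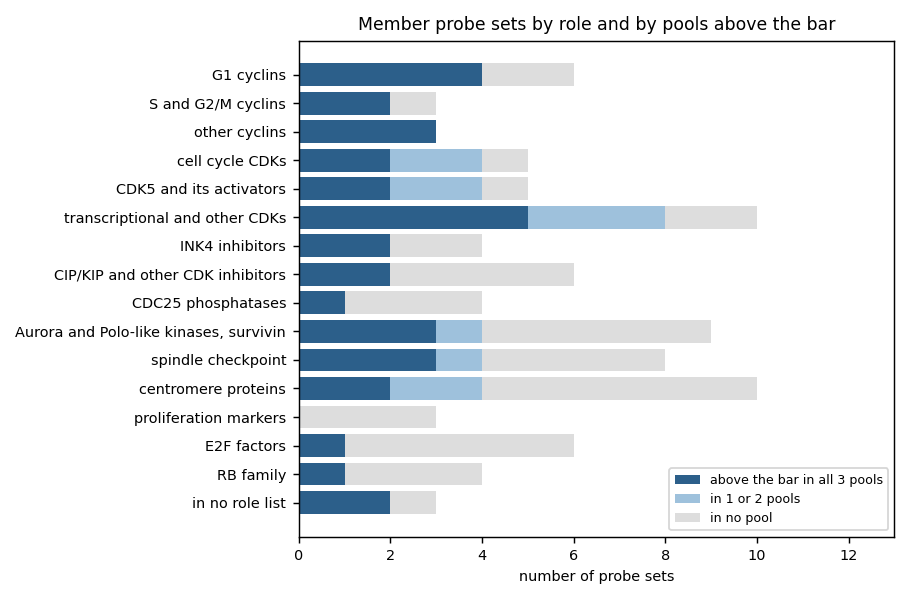
Number of member probe sets (horizontal axis) by role (rows), coloured by whether the probe set lay above the bar in all 3 pools, in 1 or 2, or in none. The other cyclins were above it with 3 of 3 probe sets, the proliferation markers with 0 of 3.

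The G1 cyclins were represented by Ccnd1, Ccnd3 and Ccne1. Ccnd1 encodes cyclin D1, the D-type cyclin on which growth of the mouse retina depends, and 1 of its probe sets read 2175, 2040.3 and 1622 in pools 1, 2 and 3, a mean of 1946 ± 288 (SD over n = 3 pools; later means are given likewise). A second Ccnd1 probe set read 335, 459.9 and 608 and ran in the opposite order, highest in pool 3 where the first was lowest. Ccnd3, the gene of another D-type cyclin, read 506, 428 and 618. Ccne1, which encodes cyclin E1, the partner of CDK2 at the start of S phase, read 384, 627 and 338. Its pools were 1.86-fold apart and pool 2 alone was high, and its log2 SD of 0.47 was 0.37 without scaling and 0.42 after quantile normalisation. Ccnd2, for the third D-type cyclin, stayed between 63.2 and 81.6, and Ccne2, for cyclin E2, between 22.5 and 36.5, both under the bar in every pool.

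Cdk4, the kinase gene that pairs with the D-type cyclins, had both of its probe sets above the bar. The first read 2746, 2492 and 2658, with pools 1.10-fold apart; its log2 SD of 0.07 became 0.17 without scaling and 0.23 after quantile normalisation. The second read 1388, 836 and 831, so that pool 1 stood above the others by this probe set. Cdk2, for the kinase of cyclins E and A, was not above the bar in all pools: 1 probe set read 365, 286 and 177, over it in pools 1 and 2, and the other read 58.5, 17.2 and 16.5.

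Cyclins of S phase and mitosis gave close values in the 3 pools. Ccna2, the gene of the somatic A-type cyclin, read 724, 661 and 647 (678 ± 41.0), and Ccnb2, for a B-type cyclin of mitosis, read 534, 555 and 650.2 (579.5 ± 62.0). The highest of the pools exceeded the lowest by 1.12-fold and 1.22-fold for these genes. Ccna1, for the A-type cyclin known mainly from the germ line, was under the bar at 3.56, 51.3 and 13.6. Cdk1, whose kinase both cyclins activate, read 196, 234 and 415, and only pool 3 passed the bar.

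**Figure D2:**
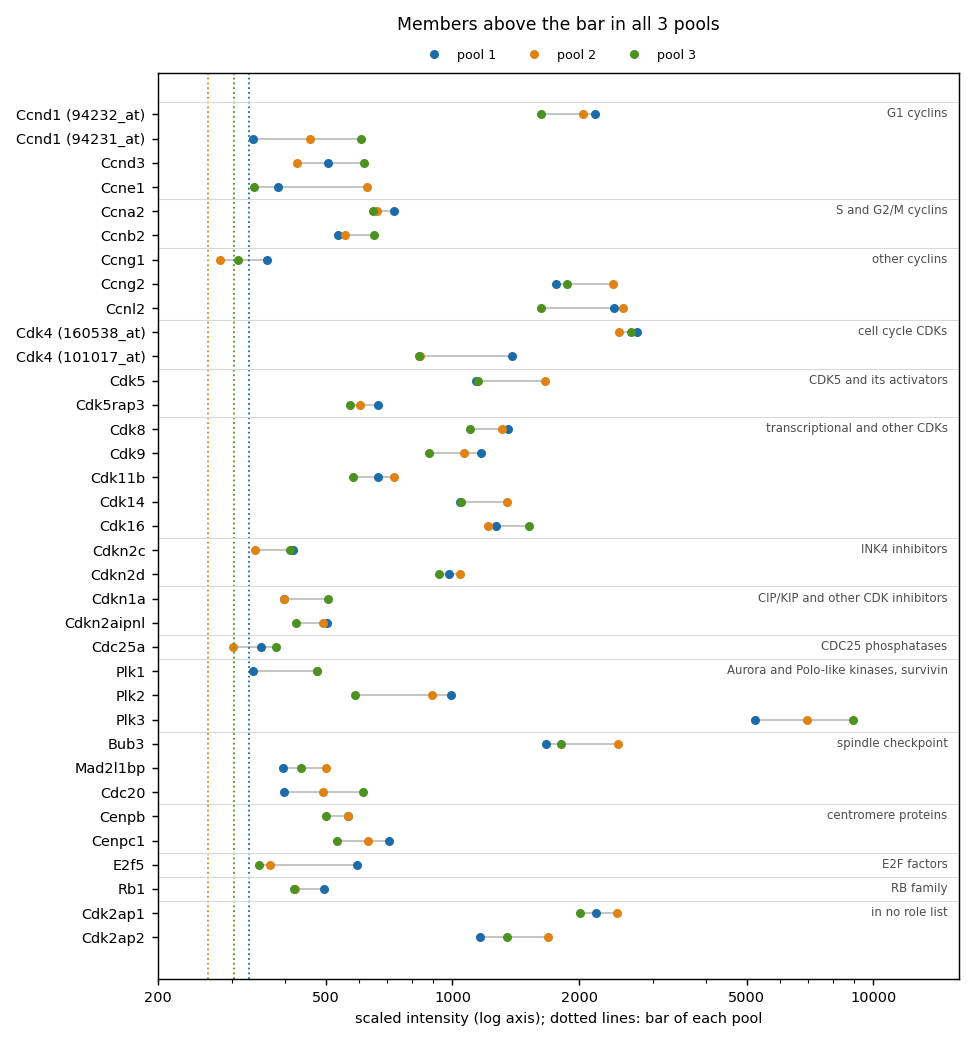
Scaled intensity (log axis) of the 35 probe sets above the bar in all 3 pools, by role, with 1 point per pool, a grey line over their range and dotted lines at the bar of each pool. Most rows are short: at this scaling the pools lay within 1.86-fold in every row.

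The kinases that act within mitosis were mostly under the bar. Plk1, the Polo-like kinase of mitotic entry and spindle assembly, had 1 of 3 probe sets above it, at 335, 477 and 477. The other Plk1 probe sets read 189, 358 and 474 and 109, 132 and 171, and in all 3 pool 1 was lowest. All 3 are of types named by a letter suffix, whose signal can be shared with related transcripts or rests on relaxed probe selection. Plk4, the kinase of centriole duplication, read 186, 215 and 229. Aurka, for the Aurora kinase of spindle poles, read 149.5, 122 and 116, and Aurkb, for that of the chromosomal passenger complex, read 45.5, 52.6 and 47.8. Birc5, the gene of survivin, a partner of Aurora B in that complex, read 167, 94.3 and 138. None of these 4 genes reached the bar in any pool.

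Plk2 and Plk3, Polo-like kinase genes known to respond to stress and, in neurons, to activity, were above the bar. Plk2 read 989.8, 893 and 588, lowest in pool 3, and Plk3 read 5225, 6957 and 8933, highest there. The Plk3 probe set was designed with some of the usual selection rules dropped, and no other probe set of that gene was present to set beside it.

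The spindle checkpoint delays the separation of chromosomes until all are attached. Bub3, for a kinetochore protein of the checkpoint, read 1666, 2469.9 and 1813 by 1 probe set, and a second stayed between 21.3 and 28.7. Mad2l1, for the checkpoint protein MAD2, read 240.3, 269 and 237 and passed the bar in pool 2 alone, while Mad2l1bp, which encodes a MAD2-binding protein that helps to switch the checkpoint off, read 396, 501 and 436. Cdc20, whose product is the target of the checkpoint and activates the ubiquitin ligase of anaphase, read 399, 491 and 614 (501 ± 108), highest in pool 3. Bub1, for the kinase of the checkpoint, was under the bar with all 3 of its probe sets, 1 of which read 41.0, 55.1 and 106.

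Among the centromere protein genes, Cenpb, whose product binds satellite DNA, read 563, 563 and 499, and Cenpc1, for a protein of the inner kinetochore, read 705, 631 and 531. At this scaling both were lowest in pool 3. Cenpa, which encodes the histone H3 variant that marks centromeres, read 330.3, 162 and 384, under the bar in pool 2. Cenpv read 411, 227 and 337 by 1 of its probe sets and 29.3 to 88.6 by the other. Cenpe, the kinetochore motor gene, stayed between 2.61 and 41.5 over its 2 probe sets, and Cenpk, Cenpl and Cenpx lay between 14.5 and 161, so 4 of the 8 genes passed the bar in no pool.

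The genes used most often to mark dividing cells were under the bar in every pool. Mki67, the gene of the Ki-67 antigen, read 258, 155 and 218 by 1 probe set and 119, 114 and 185 by another. Top2a, which encodes the topoisomerase that disentangles chromosomes before mitosis, read 161, 47.5 and 201. Pool 2 was lowest for both genes, by each probe set. These readings depend on where the bar is set. At the 75th percentile of the same genes of other organs it lay at 92.6, 104 and 130 in pools 1, 2 and 3. Both Mki67 probe sets passed that lower bar in every pool, and Top2a passed it in pools 1 and 3.

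The promoters of several of these genes were read for elements known to time transcription to the cell cycle. The window ran from 250 bases before to 50 bases after the annotated start in RefSeq's sequence of GRCm38.p6, and it was found for 57 of the 67 genes, with 68 promoters. Those of the mitosis genes Ccnb2, Cdc20 and Plk1, which had a probe set above the bar, and of Cdk1 and Top2a, which had none, are shown because they carry both elements, and that of Cdk4 because it carries none of them. Capitals mark the CHR element (TTTGAA or TTCGAA), the CCAAT box (CCAAT) and the E2F core (TTCCCGC or TTGGCGC, and likewise TTCGCGC or TTGCCGC), each searched on both strands. A CCAAT box on the opposite strand reads ATTGG. A box on either strand can share letters with an E2F core, as happened in 2 of the 68 promoters.
Ccnb2, chr9:70421505-70421804, minus strand: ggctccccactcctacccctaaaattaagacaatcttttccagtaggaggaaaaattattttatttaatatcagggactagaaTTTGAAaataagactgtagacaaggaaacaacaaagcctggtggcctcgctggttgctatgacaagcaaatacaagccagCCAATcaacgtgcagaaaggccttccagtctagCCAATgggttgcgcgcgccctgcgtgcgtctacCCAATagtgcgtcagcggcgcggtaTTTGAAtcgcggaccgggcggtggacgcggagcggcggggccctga
Cdc20, chr4:118437294-118437593, minus strand: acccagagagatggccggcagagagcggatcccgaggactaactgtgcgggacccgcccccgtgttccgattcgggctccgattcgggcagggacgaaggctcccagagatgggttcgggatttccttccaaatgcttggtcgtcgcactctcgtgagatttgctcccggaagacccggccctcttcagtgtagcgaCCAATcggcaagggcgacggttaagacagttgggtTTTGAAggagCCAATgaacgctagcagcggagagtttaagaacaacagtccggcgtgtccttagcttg
Plk1, chr7:122159185-122159484, plus strand: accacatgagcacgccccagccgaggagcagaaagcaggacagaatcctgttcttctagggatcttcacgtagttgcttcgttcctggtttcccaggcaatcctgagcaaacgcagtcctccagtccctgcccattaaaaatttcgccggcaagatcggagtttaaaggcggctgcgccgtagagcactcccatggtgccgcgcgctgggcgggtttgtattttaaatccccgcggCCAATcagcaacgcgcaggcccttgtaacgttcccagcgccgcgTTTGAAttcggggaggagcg
Cdk1, chr10:69352863-69353162, minus strand: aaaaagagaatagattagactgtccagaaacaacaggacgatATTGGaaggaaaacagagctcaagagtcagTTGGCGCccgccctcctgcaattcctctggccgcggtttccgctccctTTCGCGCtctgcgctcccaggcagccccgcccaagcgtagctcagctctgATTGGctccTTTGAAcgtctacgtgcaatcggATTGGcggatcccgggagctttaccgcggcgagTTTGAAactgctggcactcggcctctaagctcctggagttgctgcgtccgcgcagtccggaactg
Top2a, chr11:99024140-99024439, minus strand: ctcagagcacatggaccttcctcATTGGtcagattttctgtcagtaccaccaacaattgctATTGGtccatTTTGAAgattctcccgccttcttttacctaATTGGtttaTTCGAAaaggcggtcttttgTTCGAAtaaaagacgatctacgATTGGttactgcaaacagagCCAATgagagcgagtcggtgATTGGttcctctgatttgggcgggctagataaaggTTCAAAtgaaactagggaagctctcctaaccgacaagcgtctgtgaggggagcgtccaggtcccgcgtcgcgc
Cdk4, chr10:127063285-127063584, plus strand: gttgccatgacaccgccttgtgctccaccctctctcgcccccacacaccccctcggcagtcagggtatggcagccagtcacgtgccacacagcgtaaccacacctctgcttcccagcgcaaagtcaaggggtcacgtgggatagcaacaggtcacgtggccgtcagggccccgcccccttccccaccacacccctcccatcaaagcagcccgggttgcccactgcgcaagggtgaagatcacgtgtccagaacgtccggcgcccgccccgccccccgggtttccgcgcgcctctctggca

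Counted from the annotated start, whose first base is 0 with upstream positions negative, the CHR match nearest to it began at 4 in Ccnb2, -18 in Cdc20, 30 in Plk1, -15 in Cdk1 and -23 in Top2a. Ccnb2 and Cdk1 held 3 CCAAT boxes each, Cdc20 held 2 and Plk1 held 1, whereas Top2a held 6. E2F cores stood in the window of Cdk1, at -178 and -130. These are matches of letters and not tested sites.

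Over the member promoters, 26.5% held a CHR element, beside 19.2% of the 32851 promoters of all 27025 genes in the table. A CCAAT box stood in 60.3%, beside 37.4%, and an E2F core in 23.5%, beside 9.57%. Both a CHR element and a CCAAT box were present in 23.5% of member promoters, beside 7.52% of all. Of the 28 promoters of cyclins A and B, CDC25, Aurora and Polo-like kinase, checkpoint, centromere and proliferation marker genes 11 held both, or 39.3%, against 5 of 40, or 12.5%, among the other members. No promoter was found for Ccna2, Cdc25c and Aurkb. The 5 were those of Cdk1, Cdk16, Cdkn3, E2f3 and E2f8, so the other members include genes of mitosis such as Cdk1. The signal did not go with the elements in the same direction: both were in 17.6% of the 34 promoters of genes with a probe set above the bar and in 29.4% of the 34 others. All these shares count promoters, so a gene with several starts counts more than once. Bub3 had overlapping windows that hold the same CHR and CCAAT matches, and both windows are among the 11 and in the 17.6%. These shares were not tested, and base composition was not matched.

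**Figure D3:**
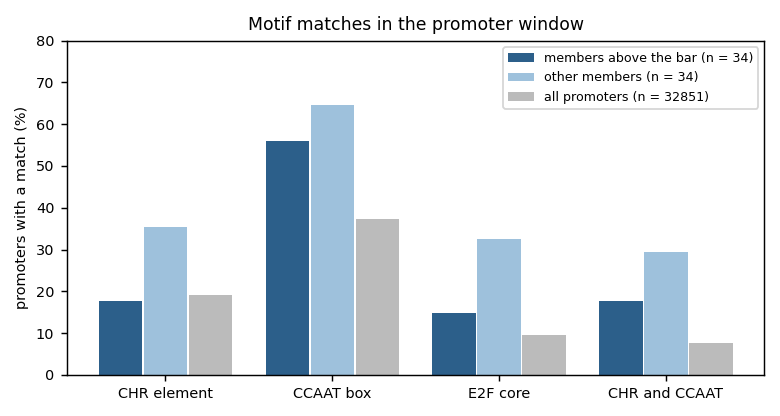
Share of promoters with a match (vertical axis, percent) for the CHR element, the CCAAT box, the E2F core and the first 2 together, in members with a probe set above the bar, other members and all promoters of the table. The other members have the tallest bars for every element, with CCAAT boxes in 64.7% of them.

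Of the CDKs with roles in transcription and elsewhere, 5 of 10 probe sets were above the bar. Cdk8, the kinase gene of the Mediator complex, read 1353, 1315 and 1099.8, and Cdk9, for the kinase that releases paused RNA polymerase, read 1172, 1065 and 880.3. Cdk11b, for a kinase linked to transcription and splicing, read 665, 726 and 580.3 by 1 of its 3 probe sets. By these probe sets all 3 genes were lowest in pool 3. Cdk14, a kinase gene linked to Wnt signalling, read 1039, 1347 and 1049, and Cdk16, a kinase gene of the PCTAIRE subfamily that neurons express, read 1268, 1211 and 1524. Cdk18 of the same subfamily read 224, 263 and 410.0, just over the bar in pool 2. Cdk7, for the kinase that activates other CDKs, read 154, 188 and 279 and was under the bar throughout.

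Cdk5, the CDK of postmitotic neurons, read 1137, 1662 and 1147 (1315 ± 300.1), with pool 2 high and pools 1 and 3 nearly equal. Of its activator genes, Cdk5r1 read 269, 344 and 289, over the bar in pool 2 alone, and Cdk5r2 read 71.2, 18.4 and 95.2. Cdk5rap3, named for a protein that binds a CDK5 activator, read 665, 604 and 572.

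The 3 cyclin genes outside the D, E, A and B types were above the bar. Ccng1, a target gene of p53, read 362, 281 and 309 and was close to the bar in pools 2 and 3. Ccng2, for a cyclin linked to cell cycle arrest, read 1758, 2412 and 1870.1, and Ccnl2, for a cyclin that acts in splicing, read 2416, 2539.5 and 1621.

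Among the CDK inhibitors, 2 of the 4 INK4 genes were above the bar. Cdkn2d read 982, 1039.8 and 931 (984 ± 54.6), with a highest pool 1.12-fold over the lowest, and Cdkn2c read 419, 339.6 and 411. Both encode proteins that block CDK4 and CDK6. The other 2, Cdkn2a and Cdkn2b, were at 28.4 to 49.2 and at 3.49 to 16.9. In the CIP/KIP group Cdkn1a, a target gene of p53, read 399, 397 and 506 by 1 probe set and 283, 136 and 152 by another, of which the second was under the bar. Cdkn1b, for the inhibitor that many cells use to stay out of the cycle, was under the bar with both probe sets, at 167, 60.2 and 221 and at 80.8, 46.5 and 54.9. Cdkn3, a phosphatase gene acting on CDKs, was between 12.9 and 50.2. Cdkn2aipnl, which only shares part of its name with the inhibitors, read 504, 492 and 424.

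The CDC25 phosphatases remove the inhibitory phosphates from CDKs. Cdc25a read 352, 301 and 381 by 1 probe set and 7.84 to 11.2 by another, and Cdc25c stayed between 49.0 and 176 over its probe sets. Of the transcription factors, E2f5, usually counted among the repressive E2Fs, read 594, 369 and 346, highest in pool 1, whereas E2f1, E2f3 and E2f8 were under the bar in every pool, between 21.8 and 198. Rb1, the retinoblastoma gene, read 494, 423 and 419.9, and a second probe set read 194, 112 and 228. Its relatives Rbl1 and Rbl2 read 265, 206 and 267 and 197, 186 and 143 and were under the bar.

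The remaining genes matched by symbol alone. Cdk2ap1 and Cdk2ap2, named for binding CDK2, read 2191, 2464 and 2007 and 1164, 1682 and 1344. At this scaling both were highest in pool 2. Ccnb1ip1, for a ubiquitin ligase that meiosis requires in mice, read 79.2, 62.6 and 69.4.

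Probe sets of the same gene often fell on different sides of the bar. Of the 19 genes with more than 1 probe set, only Ccnd1 and Cdk4 had all of them above it. In 8 genes the probe sets were divided: Bub3, Cdc25a, Cdk11b, Cdk14, Cdk5rap3, Cdkn1a, Plk1 and Rb1. Cdk11b read 467, 338 and 296 and 108, 132 and 48.2 by its other probe sets, Cdk14 155, 225 and 312, and Cdk5rap3 262, 139 and 343. The other 9 genes had none above the bar. A gene counted as under the bar by a single probe set, such as Aurka or Top2a, has therefore no second reading.

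**Figure D4:**
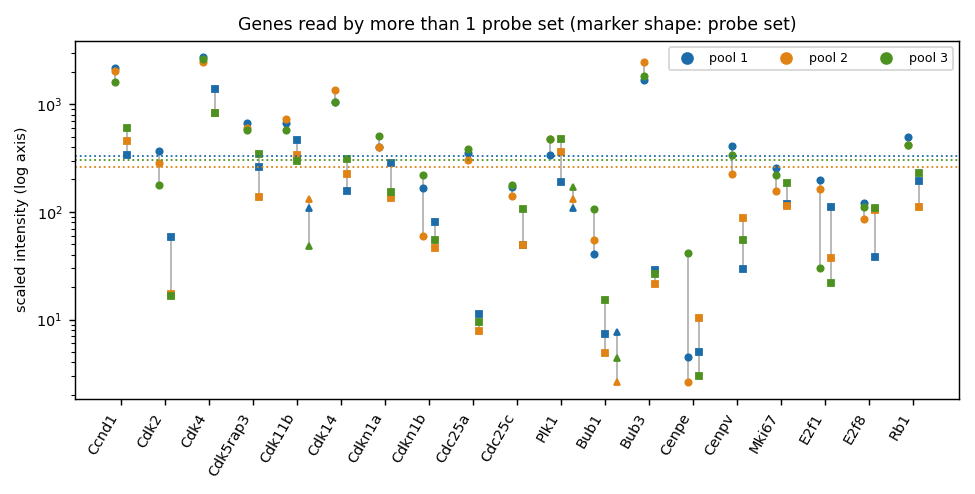
Scaled intensity (log axis) of the 19 genes read by 2 or 3 probe sets, with 1 marker shape per probe set, 1 colour per pool, a grey line over each range and dotted lines at the bars. Bub3 is an example of a divided gene, with 1 probe set at 1666 to 2469.9 and the other at 21.3 to 28.7.

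Spread between the pools was tested with limma's prior variance: for each of the brighter 50% of probe sets on the array, 6211 in number, the variance over the pools was set against that typical of its level. Of these 83, or 1.34%, had an adjusted p under 0.05. Among the 47 member probe sets tested, from 41 genes, 0 did, and 2 had an unadjusted p under 0.05, or 4.26%, beside 420, or 6.76%, of all tested. Those 2 were the Plk1 probe set at 189, 358 and 474 (limma adjusted p = 0.603) and Cenpa at 330.3, 162 and 384 (limma adjusted p = 0.734). The other 42 member probe sets were too dim to be tested.

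For the 35 probe sets above the bar the median SD over the pools was 0.21 on the log2 scale, beside 0.24 for the 4282 named probe sets above it. In 27 of 35, or 77.1%, the pools lay within 1.5-fold, beside 69.6% of the named probe sets above the bar. In 0 of 35 was the range over 2-fold, beside 4.11% of the named probe sets above the bar.

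Which pool was highest also varied. Pool 1 was highest for 15 of the 35, pool 2 for 12, or 34.3%, and pool 3 for 8, or 22.9%. Over the named probe sets above the bar these shares were 26.3% for pool 1, 54.6% for pool 2 and 19.1% for pool 3. The last 3 shares depended on the scaling. They were 37.6%, 34.1% and 28.2% without scaling, and 36.7%, 33.0% and 30.3% after quantile normalisation. The counts of the 35 are given at the main scaling only. The median log2 deviation of the members from each probe set's mean was 0.02, 0.05 and -0.09 in pools 1, 2 and 3, beside -0.04, 0.12 and -0.08 over the named probe sets above the bar. Relative to those, the members stood at 0.07, -0.08 and -0.01, and at 0.04, -0.06 and -0.01 after quantile normalisation. These medians were not tested. Among the members' own medians that of pool 2 turned its sign, to -0.08 without scaling, to -0.06 after quantile normalisation and to -0.02 with pool 3 left out. With only pools 1 and 2 left the deviations are equal and opposite, so the last value only mirrors that of pool 1.

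**Figure D5:**
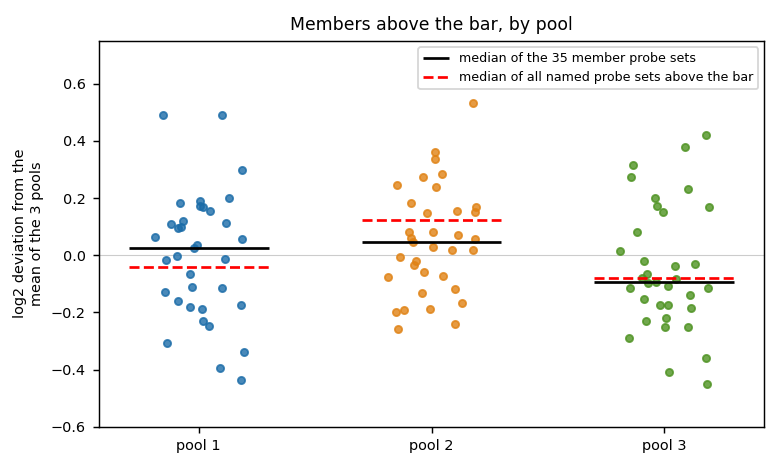
Deviation on the log2 scale of each of the 35 probe sets above the bar from its mean over the 3 pools (vertical axis), by pool, with the median of the members (solid line) and of the 4282 named probe sets above the bar (dashed line). The points of each pool spread on both sides of 0, and the member medians are 0.02, 0.05 and -0.09.

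Other genes of the cell cycle and mitosis, listed beside the members, were read by 1 probe set per gene. Of these 54 genes 20, or 37.0%, were above the bar, beside 33 of 67 members and 44.6% of all genes with 1 probe set per gene, and 0 of the 29 tested had an adjusted p under 0.05. The first 6 of them in list order were Kif22, Prc1, Cks1b, Ube2s, Anapc5 and Cdc16. Prc1, for a protein that bundles microtubules of the dividing spindle, read 334, 279 and 373. Cks1b, for a small CDK-binding protein, read 475, 663 and 548. Ube2s, for a ubiquitin-conjugating enzyme of the anaphase-promoting complex, read 352, 1039 and 414, high in pool 2 alone (limma adjusted p = 0.0607). Anapc5 and Cdc16, subunit genes of that complex, read 4111, 6567 and 3996 and 1249, 1071 and 1103, and Kif22, a chromosome-binding kinesin gene, read 1475, 1428 and 1255.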

How the data were processed

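The table deposited by the authors held one intensity per probe set and array on a linear scale, from 0.1 to 55245.8, for 12488 probe sets. For the software behind the intensities and its background correction, a name or version is not given in the sources used here. Means without the lowest and highest 2% were 500.3, 500.0 and 500.0, nearly equal, as after a scaling of each array, which no label describes. After 66 control probe sets were left out, 12422 remained; 10833 had 1 gene symbol in the platform annotation, 396 several and 1193 were unnamed here, and 10817 symbols were found by gene ID in a RefSeq table of GRCm38.p6, with no change of name.

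Arrays were scaled to a common median, the mean of their 3 medians, with the factors 0.962, 1.09 and 0.959. Values were then floored at the 20th percentile, 42.2, and put on the log2 scale. Intensities in the text are scaled and not floored. The bar took 1 probe set per off-tissue gene (no letter suffix before others, then the highest mean), and 4 of these 65 genes were above it in all pools. For the spread test, the variance over 3 arrays, with 2 degrees of freedom, was divided by the prior variance from squeezeVar (limma 3.58.1, R 4.3.3, robust, mean level as covariate) in an upper-tail F test at the highest prior degrees of freedom, 279, with Benjamini-Hochberg adjustment at 0.05 over all tested probe sets. The script was tested on simulated data. Pairs of pools shared 11 to 12 equal values, so the 3 arrays are distinct.

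The members and lists were chosen with earlier results of these data known. By the rule for named genes, members above the bar, with excess spread or with probe sets on both sides of the bar have their value in every pool, other members at least their range, and of the other cell cycle genes the first 6 above the bar in list order are named. Nothing says more of the replicates than that each pooled several animals, so p-values reflect only how far these samples lie apart, which may be technical in part. The number of arrays limits the precision. Alternatives covered scaling, floor, filter, bar, probe set choice and each pool left out.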

Additional observations from a re-analysis of the deposited data

How the results depend on the processing

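The number of all probe sets with excess spread, 83, moved to 6 without scaling, 6 after quantile normalisation, 0 when dim probe sets were tested too (141 at an unadjusted p under 0.05 in limma), 27 in the brighter 25% and 38 without limma's robust option; the cause was not tested. Leaving out each pool gave 9 to 30, with fewer samples: 30 without pool 1, 9 without pool 2 and 23 without pool 3. It was 82 with the lower floor and 82 with a pseudocount of 50. The members with excess spread were 0 under each of these, with 0 to 2 at an unadjusted p under 0.05 in limma; with so few calls on the whole array this says little about stability. The 35 member probe sets above the bar became 56 with the bar at the 75th percentile (62.9%, beside 58.8% of named probe sets) and 15 with the bar at the maximum of the off-tissue genes without their highest 3 (16.9%, beside 23.2%), and 33 to 37 otherwise. The median deviation of the members in pool 2, 0.05, turned to -0.08 without scaling, -0.06 after quantile normalisation and -0.02 without pool 3. The last value only mirrors that of pool 1, the other pool left. The medians of pools 1 and 3 kept their sign for probe sets above the bar. The median SD of the members was 0.16 to 0.23. The SD of single named probe sets depended on the scaling: it moved by over 1.5-fold for 14 of 35 without scaling, 11 after quantile normalisation and 0 with the pseudocount. All 89 were tested only where dim probe sets were included. With the filter kept and a pool left out, 48 were tested without pool 1, 47 without pool 2 and 44 without pool 3.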

Other observations

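Among the probe sets grouped here as mitosis genes, pool 3 was the highest for more than either other pool. Counted after the values were seen, pool 3 was the highest for 16 of the 37 probe sets of cyclins A and B, CDC25, Aurora and Polo-like kinase, checkpoint, centromere and proliferation marker genes (43.2%), for 17 of the 52 other member probe sets (32.7%) and for 30.5% of all named probe sets. Without scaling the shares were 48.6%, 34.6% and 37.1%, and after quantile normalisation 45.9%, 34.6% and 33.2%. Cdk1, listed among the 52, read 196, 234 and 415. Of the 37, 11 were above the bar in all pools, and pools 1 and 3 were each highest for 4 of these (36.4% each), beside 26.3% and 19.1% of all named probe sets above it. Without scaling these shares were 36.4% and 45.5%, beside 37.6% and 28.2%. After quantile normalisation they were 36.4% and 45.5%, beside 36.7% and 30.3%. The genes of other organs that set the bar were also highest in pool 3, with sums of 7168, 7896 and 8827 in pools 1, 2 and 3. The difference was not tested, nor was the part of this background in it.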
